A study of Mus musculus with 115 samples.

Results

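Glutathione transferases, a glutaredoxin and their partner enzymes were examined in mouse prostate: Gsta3, Gsta4, Gstm1, Gstm2, Gstp1, Gsto1, Glrx, Gclc and Gpx3. The 9 genes were chosen by name, found in the deposited table by symbol through their Ensembl identifiers, and are 9 of its 45699 genes. Each was described over all deposited libraries, 79 and 36 in the 2 parts described below, and related to Chga, Tgm4 and Svs5. Chga marks neuroendocrine cells, Tgm4 is a secretory gene of the anterior prostate, and Svs5 is a secretory gene of the seminal vesicle.

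RNA came from prostate pieces of male F2 mice bred from C57BL/6J TRAMP dams and the wild-derived strain WSB/EiJ, and all were positive for the transgene. The transgene expresses SV40 T antigen from a minimal probasin promoter that responds to androgen and is active in prostate epithelium. Mice were kept to a fixed or a humane endpoint, small prostates were sampled from the ventral lobe, and bulk tissue RNA was sequenced after ribosomal RNA depletion. The labels give each library a name of its own without stating that each is a separate mouse, give no age or lobe, and place all of them in 1 group, so no treated and control groups exist to compare. Values are in TPM, a gene's share of the transcripts in its library. TPM carries no read counts, so the reads behind each value are not known beyond the minimum per library that the labels state. The paper's text counts fewer libraries than were deposited and does not name them, so all were used.

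Glutathione is a small thiol that cells use against oxidants and reactive compounds. Transferases join it to such compounds, glutaredoxin uses it to reduce oxidized protein thiols, glutamate-cysteine ligase makes its precursor, and peroxidases spend it on peroxides. Many of these genes respond to the factor NRF2 through antioxidant response elements, and in human prostate cancer GSTP1 is well known for a methylated, silenced promoter.

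On the first principal component of log2(TPM + 1), the libraries separated into a larger part of 79 and a smaller part of 36. The component was computed without any listed gene and held 48.6% of the variance. Modelled as 2 normal distributions in place of 1, it had a BIC lower by 191, with an Ashman D of 6.08 (over 2 means well apart). The same 79 and 36 were found with all 14624 genes that had a mean of at least 1 TPM, and with another scaling. These parts were defined from the data and are not groups of the study, so they are described side by side and were not tested against each other. Correlations are given within each part and never over both.

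The labelled tissue was checked against marker genes. In the larger part, 10 prostate luminal markers summed to 319, 10143.8 and 95885.8 TPM (lowest, median and highest), and their most abundant gene was Tgm4. The same markers in the smaller part summed to 41.4, 81.3 and 2774.72 TPM. The 10 neuroendocrine markers summed to 1.35, 8.22 and 48.6 TPM in the larger part and to 51.4, 287 and 795 TPM in the smaller, with Ncam1 the most abundant in each. Foxa2 in the larger part had a median of 0 and Insm1 of 0.01 TPM. The 5 proliferation markers summed to 3.58, 36.4 and 158 TPM in the larger part and to 241, 595 and 817 TPM in the smaller, without overlap. The larger part thus held luminal RNA and little Chga, and the smaller part held little luminal RNA. Yet 4 of the 36 libraries in the smaller part had under 10 TPM of Chga, so the part is not called neuroendocrine here. In bulk samples, fewer cells of a type and less RNA per cell cannot be told apart.

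Chga encodes chromogranin A of secretory granules, and ran from 0.06 through a median of 0.30 to 4.84 TPM in the larger part. Its range in the smaller part was 0.15 through 57.2 to 479 TPM. Tgm4, a transglutaminase secreted by the prostate, ran from 0.64 through 7050 to 16894.7 TPM in the larger part and from 0.77 through 1.83 to 2469.33 TPM in the smaller. Svs5, a seminal vesicle secretory protein, ran from 0.64 through 352.9 to 63655.7 TPM in the larger part and from 0.44 through 1.85 to 69.8 TPM in the smaller. Each marker's range overlapped between the parts.

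All 9 genes passed the filter of a mean of at least 1 TPM over all libraries, although Gsta3 passed through the larger part, since its median in the smaller was 0.265 TPM. Each also reached 1 TPM in at least 50% of libraries, as 27.8% of all genes did, and 3 of the 9 (Gstp1, Glrx and Gclc) did so in every library. On GRCm38, 4 of them lie in pairs: Gsta4 (chr9:78182774-78209349) with Gclc (chr9:77754535-77794485), and Gstm1 (chr3:108012255-108017973) with Gstm2 (chr3:107981702-107986453). Gstp1 (chr19:4035407-4037985) and Gsto1 (chr19:47854970-47864790) share a chromosome. Gsta3 (chr1:21240589-21265661), Glrx (chr13:75839868-75850154) and Gpx3 (chr11:54902453-54910377) stand alone. No exon of the 9 overlapped an exon of another gene. Of the markers, Tgm4 shares 830 of its 4555 exon bases with Zdhhc3 on the opposite strand, which had a median of 24.1 TPM, and 307 with Gm49323. The library kit keeps no strand, so reads of those bases cannot be told apart by strand. The effect on the low Tgm4 values of the smaller part was not tested.

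Promoter sequence was read for 7 of the 9 genes. RefSeq windows on GRCm38.p6, from 250 bases before to 50 after a start, gave 9 promoters for these 7 genes. Gsta4 and Gclc had none in the table. The antioxidant response element was searched as TGACNNNGC on both strands. It matched 12.4% of 32851 promoters, 20 of 94 promoters (21.3%) of other glutathione and thioredoxin genes, and 1 of the 9, near the share of all promoters. That match lay in Gsta3, so its 250 upstream bases are shown. They are chr1:21240335-21240584 on the plus strand, and the capitals mark the match, whose first base is 121 bases before the start.

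Gsta3: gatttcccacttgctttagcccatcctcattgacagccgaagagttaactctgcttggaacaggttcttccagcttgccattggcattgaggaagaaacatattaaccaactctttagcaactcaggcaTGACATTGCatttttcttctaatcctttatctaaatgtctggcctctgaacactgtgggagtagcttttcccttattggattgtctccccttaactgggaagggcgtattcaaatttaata

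The androgen response palindrome GNACANNNTGTNC matched 0.475% of all promoters and 0 of the 9. A match of letters is a description and no evidence of binding.

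Among the alpha transferases, Gsta3 (ENSMUSG00000025934) encodes an enzyme known for conjugating reactive epoxides such as that of aflatoxin. It ran from 1.15 through 9.02 to 70.8 TPM in the larger part and from 0.06 through 0.265 to 8.07 TPM in the smaller. Only 7 of the 36 libraries reached the lowest value of the 79. Gsta4 (ENSMUSG00000032348), whose enzyme favours 4-hydroxynonenal from oxidized lipids, ran from 3.21 through 40.3 to 384 TPM in the larger part. Across the smaller part it ran from 0 through 1.08 to 148 TPM, and 1 library was listed at 0.

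The mu transferases conjugate a wide range of foreign compounds. Gstm1 (ENSMUSG00000058135) ran from 5.63 through 44.8 to 390 TPM in the larger part and from 0.61 through 3.04 to 31.6 TPM in the smaller. Gstm2 (ENSMUSG00000040562) ran from 12.9 through 123 to 246 TPM in the larger part and from 0.35 through 2.41 to 61.1 TPM in the smaller. Of the 36 libraries, 8 reached the larger part's lowest Gstm1 and 7 its lowest Gstm2. Both lowest values came from 1 library, W1154, which also had the part's lowest Tgm4 and Svs5 (0.64 TPM each). The next lowest were 15.7 TPM of Gstm1 in W4165 and 46.1 TPM of Gstm2 in W5000, so the overlap depends on W1154. Gstm2 was even within the larger part, where its 90th percentile was 2.37 times its 10th.

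Gstp1 (ENSMUSG00000060803), the pi transferase, ran from 25.1 through 53 to 121 TPM in the larger part and from 13.7 through 39.7 to 111.3 TPM in the smaller. Thus 30 of the 36 libraries reached the larger part's lowest value, and Gstp1 RNA was present in every library. Promoter methylation was not measured here. Gsto1 (ENSMUSG00000025068), an omega transferase that acts as a thiol transferase and reductase, ran from 5.18 through 21.8 to 96.8 TPM in the larger part. Its values in the smaller part were 0.30 through 1.79 to 55.9 TPM, and 8 libraries reached the larger part's lowest value.

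The remaining genes overlapped widely between the parts. Glrx (ENSMUSG00000021591), the cytosolic glutaredoxin, ran from 1.24 through 6.27 to 19.6 TPM in the larger part and from 1.76 through 3.66 to 9.0 TPM in the smaller. Gclc (ENSMUSG00000032350), the catalytic subunit of glutamate-cysteine ligase, ran from 2.64 through 7.55 to 15.9 TPM in the larger part and from 3.32 through 6.62 to 11.2 TPM in the smaller. For both, all 36 libraries lay at or above the lowest value of the larger part. Gpx3 (ENSMUSG00000018339), a secreted selenium peroxidase, ran from 2.05 through 8.97 to 57.04 TPM in the larger part and from 0.56 through 3.51 to 34.1 TPM in the smaller, where 29 libraries reached the larger part's lowest value. Over all libraries the ratio of the 90th to the 10th percentile was 224 for Gsta4, 142 for Gsta3 and 113.8 for Gstm2. It was 2.90 for Gstp1 and 2.10 for Gclc.

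**Figure D1:**
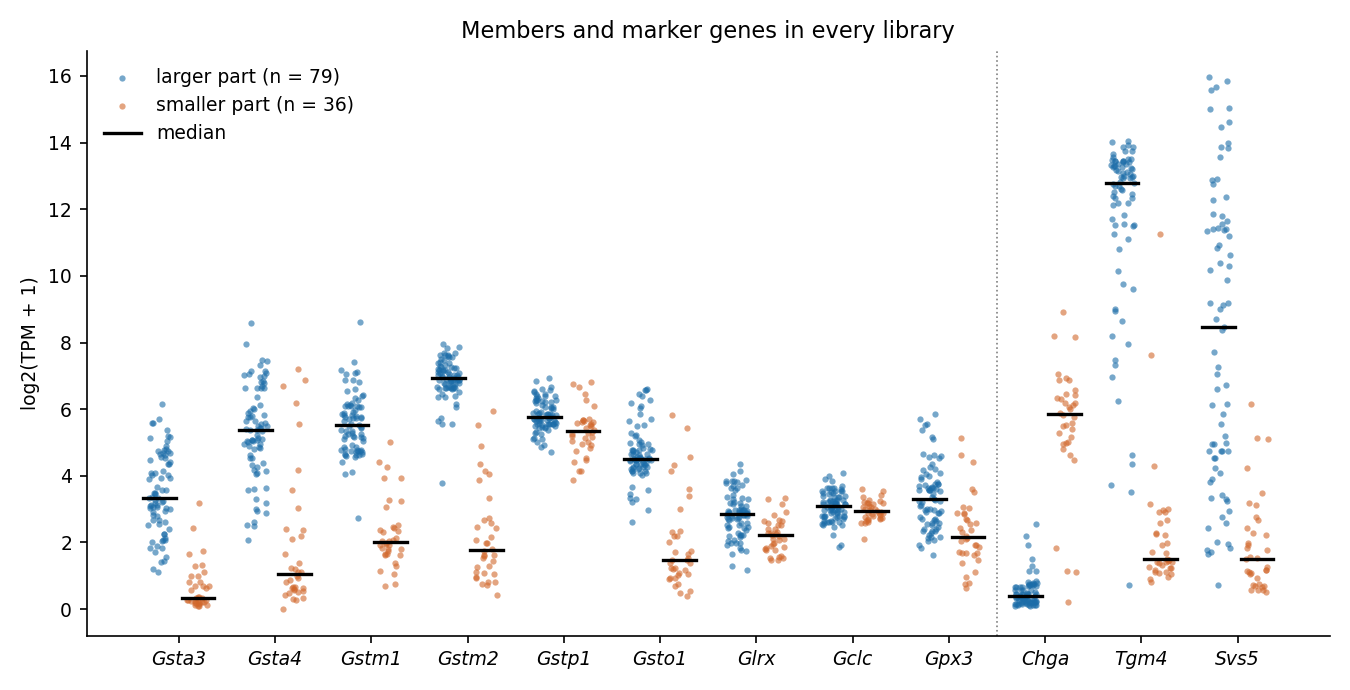
Each point is 1 library, the vertical axis is log2(TPM + 1), blue marks the larger part (n = 79), orange the smaller (n = 36), and black bars are medians. Gsta3, Gstm2 and Gsto1 sit low in most orange libraries (medians of 0.265, 2.41 and 1.79 TPM), while Gstp1, Glrx and Gclc overlap widely.

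By median TPM, a scale per transcript length, the order in the larger part was Gstm2, Gstp1, Gstm1, Gsta4, Gsto1, Gsta3, Gpx3, Gclc and Glrx. Gstm2 exceeded Gstp1 in 77 of 79 libraries, whereas the next neighbours often changed places: Gstp1 exceeded Gstm1 in 51, Gstm1 exceeded Gsta4 in 52 and Gsta3 exceeded Gpx3 in 43. The order in the smaller part was Gstp1, Gclc, Glrx, Gpx3, Gstm1, Gstm2, Gsto1, Gsta4 and Gsta3. Gstp1 exceeded Gclc in 36 of 36 libraries and Gclc exceeded Glrx in 31. Glrx, Gpx3, Gstm1 and Gstm2 were not ordered beyond their spread, since Glrx exceeded Gpx3 in 16 libraries and Gpx3 exceeded Gstm1 in 19.

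Near copies limit some of these values, because reads shared by similar transcripts are divided by estimation. The best Gstp1 match was Gstp2, 94.2% identical over 798 bases, which had a median of 1.92 TPM over all libraries. The pseudogene Gstp-ps was 97.6% identical over 631 bases, at a median of 2.85 TPM. For Gstm1, the pseudogene Gstm2-ps1 was 97.9% identical over 657 bases and was listed at a median of 0. Gstm1 and Gstm2 were 86.9% identical over 649 bases.

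How the 9 genes moved with each marker was asked within each part. A slope is the change in a gene's log2(TPM + 1) per unit of log2(TPM + 1) of the marker, so slopes of genes at low TPM are understated. limma fitted it on all genes tested (14622 in the larger part and 14612 in the smaller), and a gene was called at an adjusted p under 0.05. Beside it stand Pearson's r and Spearman's rho, each with a two-sided permutation test, and 1e-05 is the smallest p these can give. In all, 54 relations were computed, 9 genes by 3 markers by 2 parts, and no difference between slopes of the 2 parts was tested. The p-values set each relation against the spread between libraries. They treat the libraries as independent, which the labels do not state.

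**Figure D2:**
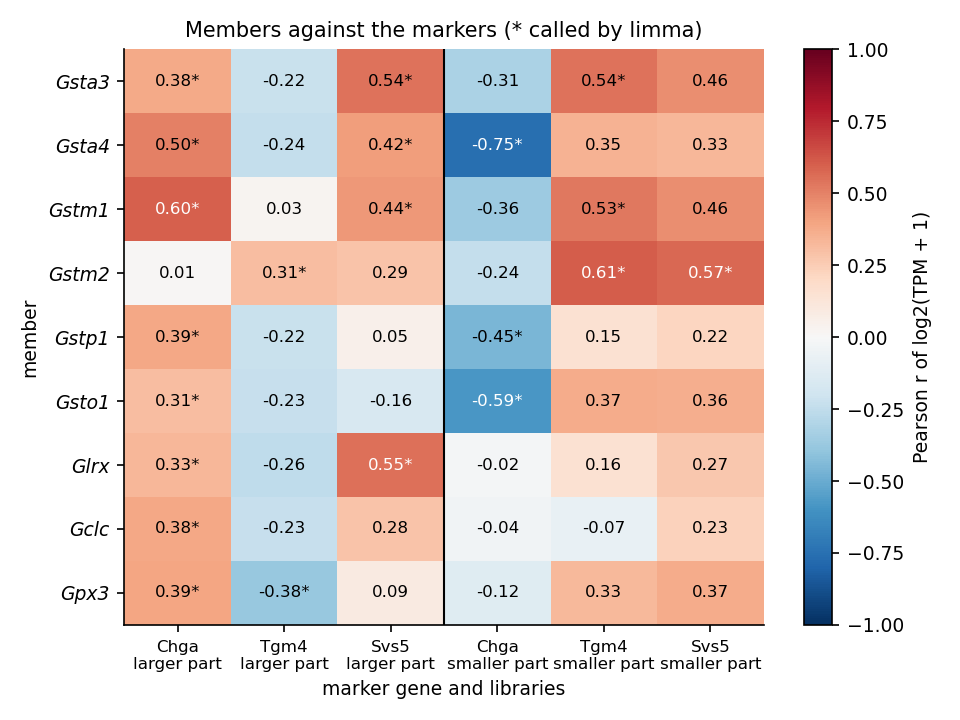
Each cell is Pearson's r of log2(TPM + 1) between a gene (vertical axis) and a marker within 1 part (horizontal axis, 79 libraries left and 36 right), and an asterisk marks a gene called by limma. In the larger part 8 genes rose with Chga, 4 rose with Svs5, and against Tgm4 only Gstm2 (rising) and Gpx3 (falling) were called.

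Svs5 was the marker with the fewest calls among all genes in the larger part. There 4 of the 9 were called, all rising, against 1.86% of all genes called (1.64% rising and 0.219% falling). The median r of the 9 was 0.286, beside -0.056 over all genes. Gsta3 rose by 0.15 per unit of Svs5 (SE 0.026, adjusted p = 3.5e-05, n = 79), with r = 0.542 and rho = 0.521 (permutation p = 1e-05 each). With the 2 libraries most distant from median Svs5 left out, r was 0.520. Glrx rose by 0.083 (SE 0.014, adjusted p = 2.59e-05), with r = 0.551 and rho = 0.515 (permutation p = 1e-05 each), and r was 0.544 without the 2. These 2 genes thus kept nearly all of their r without the extremes of Svs5. Gstm1 rose by 0.090 (SE 0.021, adjusted p = 0.00484), with r = 0.437 (permutation p = 4e-05) and rho = 0.428 (permutation p = 0.00011). Gsta4 rose by 0.13 (SE 0.032, adjusted p = 0.0092), with r = 0.418 (permutation p = 0.00017) and rho = 0.394 (permutation p = 0.00033). Leaving out the 2 farthest libraries gave r = 0.413 for Gstm1 and r = 0.405 for Gsta4.

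The other 5 genes were not called. Gstm2 had r = 0.286 (permutation p = 0.00896, adjusted p of the slope 0.192) and Gclc r = 0.283 (permutation p = 0.0114, adjusted p 0.205). Gsto1 had the only negative slope, -0.030 (SE 0.021, adjusted p = 0.514). Gsta3, Glrx, Gstm1 and Gsta4 were called with a positive slope under each of the 8 alternative fits, with a highest adjusted p of 0.000962, 0.000263, 0.0267 and 0.0466. Gstm2 and Gclc joined them under both alternative scalings, where 8.16% (median of ratios) and 5.51% (without the 20 most abundant genes) of all genes were called.

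**Figure D3:**
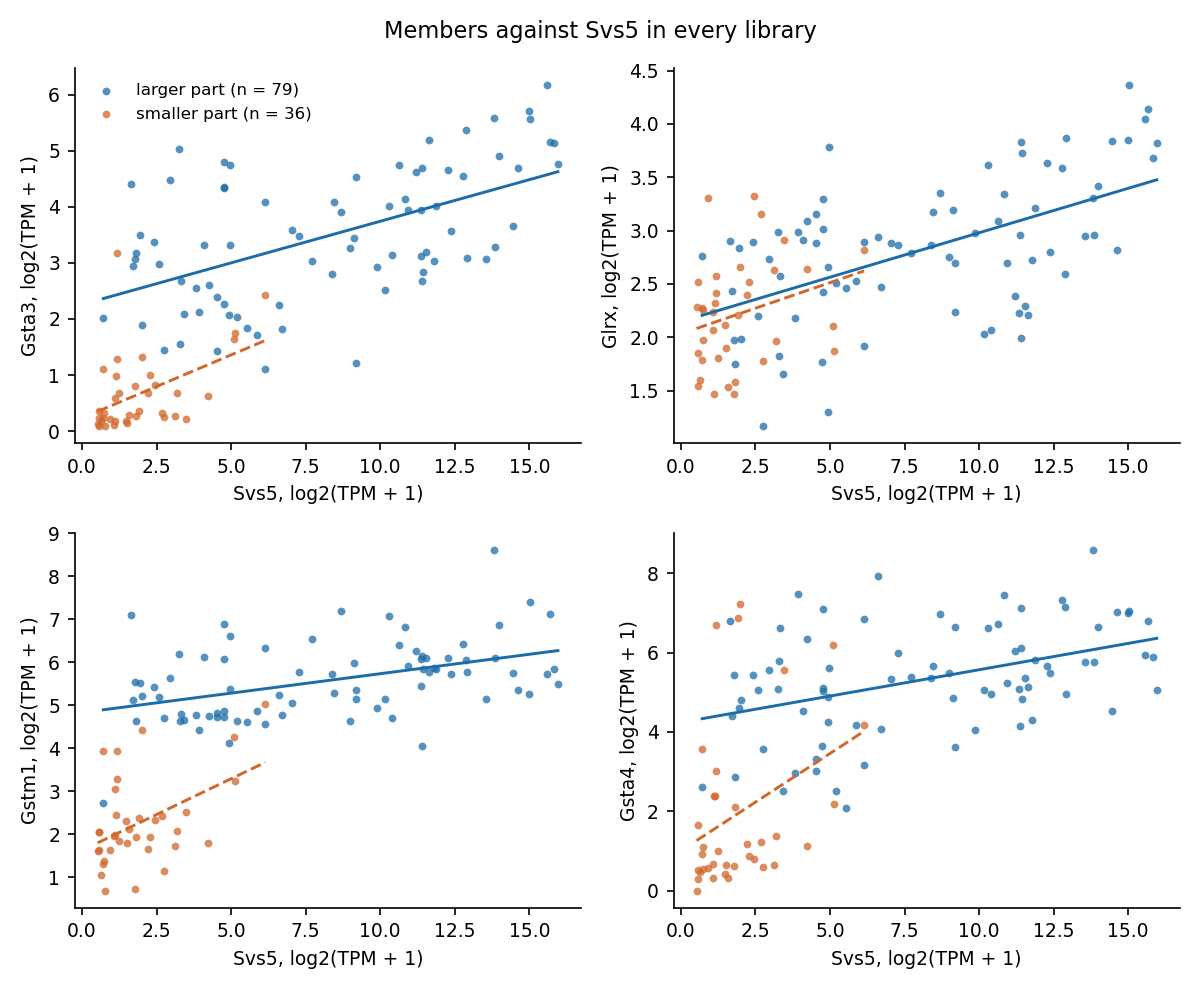
Each point is 1 library, with log2(TPM + 1) of Svs5 on the horizontal axis and of Gsta3, Glrx, Gstm1 or Gsta4 on the vertical, blue for the larger part (n = 79) and orange for the smaller (n = 36). Lines are limma slopes, solid where called and dashed where not; in blue all 4 rise, with slopes of 0.15, 0.083, 0.090 and 0.13.

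Outside the seminal vesicle list, few cell type markers were called against Svs5 in the larger part. All 7 other seminal vesicle markers rose with it, led by Svs2, Pate4 and Svs4, and the 8 summed to 1.92, 1144.62 and 173260 TPM with Svs5 the most abundant. TPM are shares of a fixed total, so the more these 8 genes held, the less was left to the others. Of the basal list 1 of 5 rose (Trp63) and of the urothelial list 1 of 4 (Upk2). None was called in the neuroendocrine (0 of 9), luminal (0 of 9), smooth muscle (0 of 6), fibroblast (0 of 6), endothelial (0 of 5), leukocyte (0 of 5), adipocyte (0 of 5), skeletal muscle (0 of 4) and proliferation (0 of 5) lists. All smooth muscle and fibroblast slopes were positive, from 0.022 to 0.061, and some uncalled slopes exceeded that of Gstm1, such as Msmb at 0.17, Upk3a at 0.11 and Cfd at 0.11, named after their values were seen. With the mean z-score of the smooth muscle and fibroblast lists as a covariate the same 4 genes were called, rising, beside 23.9% of all genes (1.74% rising and 22.2% falling). The part of seminal vesicle tissue in the slopes of the 4 genes was not tested.

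Against Svs5 in the smaller part 1 of the 9 was called, where 1.07% of all genes were called (1.03% rising and 0.0479% falling). Gstm2 rose by 0.57 (SE 0.14, adjusted p = 0.0248, n = 36), with r = 0.573 (permutation p = 0.00065) and rho = 0.450 (permutation p = 0.00618). Without the 2 farthest libraries r was 0.366 and the gene was no longer called, when 0.0616% of all genes were. With all 36 libraries it also lost its call under a pseudocount of 0.1, rescaling, normal scores and all 3 markers in 1 fit. Without the 4 libraries under 10 TPM of Chga, an alternative chosen after seeing the data, 4 of the 9 were called, beside 4.55% of all genes. Over all 36 libraries the 9 slopes were all positive, with a median r of 0.363 beside 0.074 over all genes. Over the same 36, 4 of 7 seminal vesicle, 3 of 4 skeletal muscle, 2 of 9 luminal, 1 of 6 smooth muscle and 1 of 4 urothelial markers rose, and none fell. No skeletal muscle or urothelial gene had a median of at least 1 TPM in the smaller part. Of the 8 seminal vesicle genes 2 had, so slopes of these lists rest largely on low values. The seminal vesicle list summed to 1.49, 5.67 and 242.4 TPM in that part. With the mean z-score of the smooth muscle and fibroblast lists as a covariate, Gstm2 was still called (slope 0.34, adjusted p = 0.0298), beside 0.349% of all genes. The part of the other lists was not tested.

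Chga moved with nearly the whole set in the larger part, where it spans only 0.06 to 4.84 TPM. It reached 1 TPM in 7 of the 79 libraries there, so these relations rest on low values of the marker. Against it 8 of the 9 were called, all rising, beside 18.9% of all genes (18.7% rising and 0.137% falling). The median r of the 9 was 0.384, beside 0.159 over all genes, of which 83.9% had a positive slope. That balance depends on scaling. Under median-of-ratios scaling 9.78% of all genes rose and 11.3% fell, and 6 of the 9 were called, all rising. Gstm1 rose by 1.22 per unit of Chga (SE 0.18, adjusted p = 1.49e-07, n = 79), with r = 0.601 (permutation p = 1e-05) and rho = 0.460 (permutation p = 7e-05). Gsta4 rose by 1.58 (SE 0.30, adjusted p = 4.76e-05), with r = 0.504 (permutation p = 1e-05) and rho = 0.441 (permutation p = 7e-05). With the 2 most distant in Chga left out, r was 0.521 for Gstm1 and 0.447 for Gsta4. These 2 transferases were the only ones called under each of the 8 alternatives.

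Gsta3, Gstp1, Gsto1, Glrx, Gclc and Gpx3 rose less closely, with r from 0.311 to 0.392 and adjusted p from 0.00397 to 0.0303. The weakest was Gsto1 with r = 0.311 (permutation p = 0.00571) and rho = 0.188 (permutation p = 0.0985). It was called under only 2 of the 8 alternatives, most of which kept all libraries. Its r was 0.123 without the 2 farthest libraries, so its r rests largely on those 2. Gstp1 too was not called without them (r = 0.279, adjusted p = 0.077, and 0.00266 to 0.553 over its fits). Glrx was called under 5 of the 8 alternatives, with adjusted p from 0.0179 to 0.645 over its fits. Gstm2 was flat, with r = 0.015 (permutation p = 0.891).

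Markers of other tissue moved with Chga as well. Of the lists in the larger part, 6 of 6 fibroblast, 4 of 5 endothelial, 3 of 6 smooth muscle, 4 of 4 skeletal muscle, 3 of 4 urothelial, 3 of 5 basal, 1 of 9 luminal (Msmb) and 1 of 5 adipocyte (Plin1) markers rose. No gene of the seminal vesicle (0 of 8), leukocyte (0 of 5) and proliferation (0 of 5) lists was called, and 5 of the 8 other neuroendocrine markers tested rose, led by Scg2, Eno2 and Chgb. The fibroblast list summed to 69.6, 252 and 5669.11 TPM, with Dcn the most abundant, and the smooth muscle list to 126, 1335.15 and 3824.45 TPM, with Tagln the most abundant. With the mean z-score of these 2 lists as a covariate, 2 of the 9 were called, beside 3.87% of all genes. These were Gstm1 (slope 0.95, adjusted p = 9.42e-05) and Gsta4 (slope 1.25, adjusted p = 0.00625). The part of tissues outside these 2 lists was not tested.

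Called slopes on Chga were negative in the smaller part. Against it 3 of the 9 were called, all falling, beside 34.1% of all genes (9.94% rising and 24.2% falling), so the count is close to the background. The balance over all genes depends on scaling. It was 14.7% rising and 19.2% falling under median-of-ratios scaling, and 21% and 16% rescaled without the 20 most abundant genes. Either scaling called 3 of the 9. Gsta4 fell by 0.83 per unit (slope -0.83, SE 0.12, adjusted p = 2.2e-06, n = 36), with r = -0.750 (permutation p = 2e-05) but rho = -0.300 (permutation p = 0.0759). Gsto1 fell by 0.44 (slope -0.44, SE 0.10, adjusted p = 0.000932), with r = -0.586 (permutation p = 0.00066) and rho = -0.199 (permutation p = 0.243). Gstp1 fell by 0.17 (slope -0.17, SE 0.057, adjusted p = 0.0169), with r = -0.454 (permutation p = 0.00559) and rho = -0.116 (permutation p = 0.499). Ranks thus carried little of what Pearson's r showed. Without the 2 farthest libraries r was -0.615 for Gsta4, -0.463 for Gsto1 and -0.210 for Gstp1, and Gstp1 was no longer called.

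The 4 libraries with under 10 TPM of Chga (0.15 to 2.55 TPM, the next at 21.2 TPM) were also high in several transferases. In them Gsta4 was 46.3 to 148 TPM, beside 0 to 72.3 TPM and a median of 0.86 in the other 32. Gstp1 was 76.9 to 111.3 TPM, beside 13.7 to 86.5 TPM and a median of 37.9. Gsto1 was 11.1 to 55.9 TPM, beside 0.30 to 41.8 TPM and a median of 1.63. The ranges overlapped for all 3. A limma fit without these 4, chosen after seeing the data, called 0 of the 9 against Chga (1 at an unadjusted p under 0.05), beside 9.31% of all genes, with slopes of -0.32 for Gsta4, -0.13 for Gsto1 and 0.13 for Gstp1. The relation with Chga in the smaller part therefore rests on these 4 libraries.

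Among cell type markers in the smaller part, 7 of 8 neuroendocrine markers rose with Chga, led by Chgb, Insm1 and Scg3. Falling were 2 of 5 basal (Krt17 and Krt14), 2 of 5 endothelial, 2 of 5 leukocyte, 1 of 6 fibroblast (Col1a1) and 1 of 4 urothelial (Upk3a) markers. No basal or urothelial gene had a median of at least 1 TPM in this part, so those slopes rest on low values. Of 9 luminal markers Hoxb13 rose and Krt18 fell. None was called in the seminal vesicle, smooth muscle, adipocyte, skeletal muscle and proliferation lists. With the mean z-score of the smooth muscle and fibroblast lists as a covariate, Gsta4 (slope -0.64) and Gsto1 (slope -0.26) were called and Gstp1 was not, beside 21.1% of all genes (13.2% falling), a share near that of the 9. The part of the other lists was not tested.

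**Figure D4:**
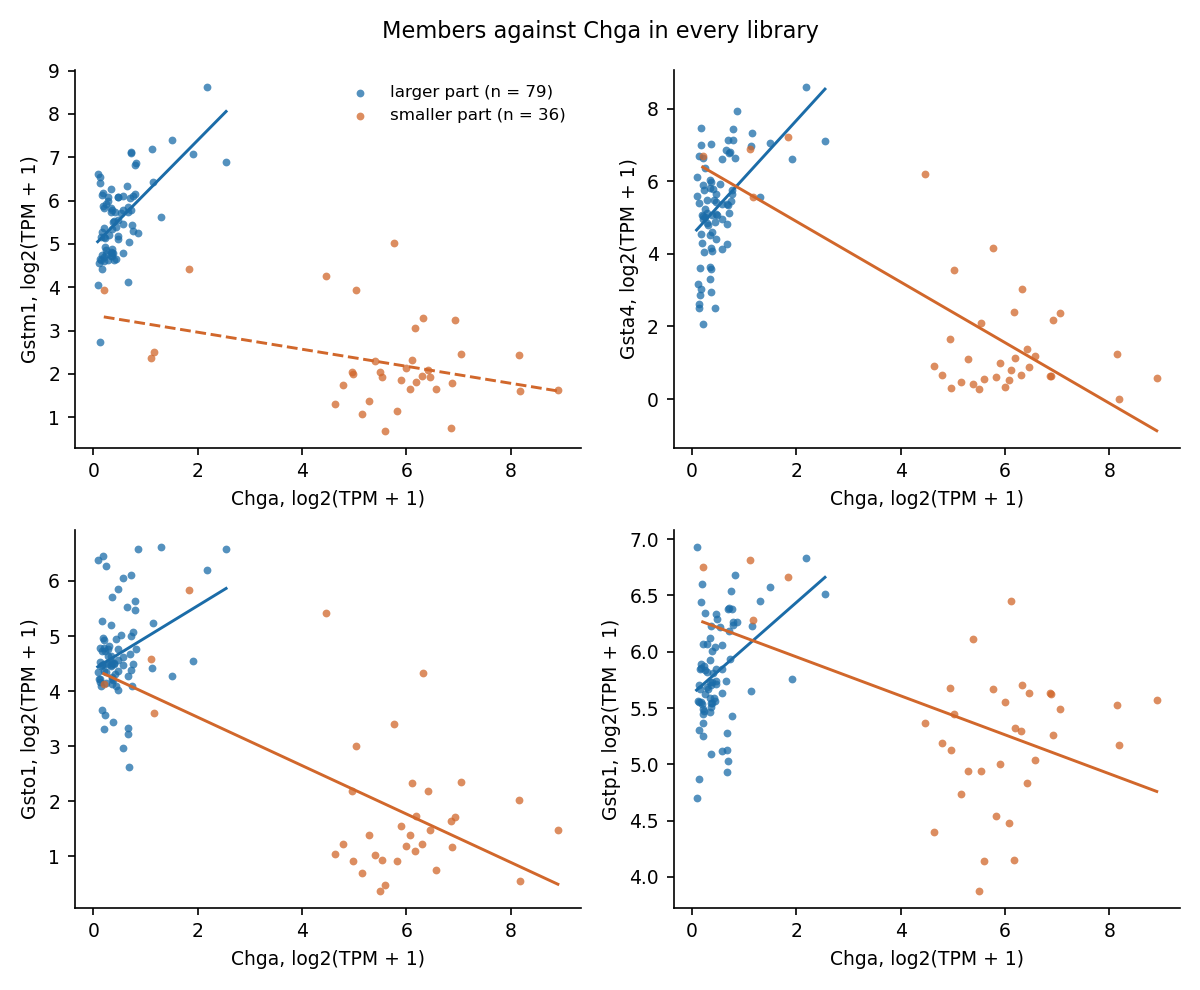
Each point is 1 library, with log2(TPM + 1) of Chga on the horizontal axis and of Gstm1, Gsta4, Gsto1 or Gstp1 on the vertical, blue for the larger part (n = 79) and orange for the smaller (n = 36). Lines are limma slopes, solid where called; the 4 orange points at the left of the Gsta4 panel are 46.3 to 148 TPM, and without them no slope of the smaller part was called.

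Tgm4 gave few calls among the 9 in the larger part, although 8 of them had an unadjusted limma p under 0.05. Against it 2 of the 9 were called, 1 in each direction, beside 39% of all genes (12.2% rising and 26.7% falling), a share above that of the 9. This split over all genes depends on scaling. It was 29.1% rising and 28.5% falling under median-of-ratios scaling, and 24.2% and 25.8% rescaled without the 20 most abundant genes. Gpx3 fell by 0.13 per unit (slope -0.13, SE 0.036, adjusted p = 0.00252, n = 79), with r = -0.378 (permutation p = 0.00054) and rho = -0.535 (permutation p = 1e-05). With the 2 libraries most distant in Tgm4 left out r was -0.490, and the secreted peroxidase was called, falling, under each of the 8 alternatives. Gstm2 rose by 0.066 (SE 0.023, adjusted p = 0.0183), with r = 0.306 (permutation p = 0.00953) and rho = 0.214 (permutation p = 0.0574). Its r was -0.0008 without the 2 libraries, so the relation rests on them. Without these 2 libraries 7 of the 9 fell and were called (Gsta3, Gsta4, Gstp1, Gsto1, Glrx, Gclc and Gpx3), when 62.8% of all genes were called and 55.6% fell. Over all 79 libraries the 7 genes not called had a negative rho. It was -0.477 for Gsta4 and -0.401 for Gsta3 (permutation p = 1e-05 and 0.00019). For Gclc and Glrx it was -0.380 and -0.369 (permutation p = 0.0006 and 0.00071). Gstp1, Gstm1 and Gsto1 had -0.287, -0.222 and -0.139 (permutation p = 0.0109, 0.0496 and 0.22).

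Stromal and immune markers moved with Tgm4 in the same libraries. Falling were 6 of 6 fibroblast, 5 of 5 leukocyte, 4 of 5 endothelial, 3 of 4 skeletal muscle and 2 of 9 neuroendocrine markers. The last 2 were Eno2 and Foxa2, and the slope of Foxa2 rests on low values, given its median in this part stated above. Rising were 4 of 6 smooth muscle and 4 of 8 luminal markers, of which 2 more fell (Sbp, slope -0.57, and Msmb, slope -0.36). The labels give no lobe, so lobe and amount of secretion cannot be told apart in slopes on Tgm4. The endothelial (Emcn), basal (Krt15) and urothelial (Upk1b) lists each had 1 rising gene, and 1 basal (Krt17) and 1 urothelial (Upk1a) gene fell. The seminal vesicle, adipocyte and proliferation lists had none called. Leukocyte markers summed to 14.3, 108.7 and 1138.15 TPM, with Lyz2 the most abundant. With the mean z-score of the smooth muscle and fibroblast lists as a covariate, Gpx3 still fell and was called (slope -0.098, adjusted p = 0.0217, and 1.69e-05 to 0.0217 over its fits). The part of leukocytes and of the other lists was not tested.

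Against Tgm4 in the smaller part 3 of the 9 were called, all rising, beside 2.74% of all genes (2.18% rising and 0.568% falling). Gstm2 rose by 0.43 (SE 0.094, adjusted p = 0.00505, n = 36), with r = 0.608 (permutation p = 0.00032) and rho = 0.432 (permutation p = 0.00914). Gsta3 rose by 0.19 (SE 0.050, adjusted p = 0.0298), with r = 0.539 (permutation p = 0.00794) and rho = 0.499 (permutation p = 0.00208). It reached 1 TPM in only 8 of these 36 libraries and was tested there through its level in the larger part, so its slope rests on low values. Gstm1 rose by 0.27 (SE 0.073, adjusted p = 0.0314), with r = 0.529 (permutation p = 0.00245) and rho = 0.273 (permutation p = 0.107). With the 2 most distant in Tgm4 left out, r fell to 0.187 for Gstm2, 0.225 for Gsta3 and 0.0099 for Gstm1. limma then called none, and 0 had an unadjusted p under 0.05. The 3 calls rest on 2 libraries, although 0.0274% of all genes were called without them. Under normal scores of ranks, with all 36 libraries, limma called 0 of the 9, beside 0.465% of all genes. In that fit 7 of the 9 had an unadjusted p under 0.05. Without the 4 libraries under 10 TPM of Chga, chosen after seeing the data, 5 of the 9 rose and were called, beside 9.26% of all genes. Smooth muscle (5 of 6), seminal vesicle (4 of 8), urothelial (3 of 4), luminal (2 of 8), basal (2 of 5) and skeletal muscle (2 of 4) markers rose too. No urothelial, basal or skeletal muscle gene had a median of at least 1 TPM in this part. Of the 8 seminal vesicle genes 2 had, so slopes of these lists rest largely on low values. Mki67, 1 of 5 proliferation markers, fell, and the neuroendocrine, fibroblast, endothelial, leukocyte and adipocyte lists had none called. Smooth muscle markers summed to 1.65, 29.4 and 590 TPM, with Acta2 the most abundant. With the mean z-score of the smooth muscle and fibroblast lists as a covariate, Gstm2 alone was called (slope 0.24, adjusted p = 0.0254, and 0.00121 to 0.655 over its fits), beside 0.958% of all genes. The part of the other lists was not tested.

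The wider pathway was read from 11 lists with 78 other genes, of which 67 were tested. Against Svs5 in the larger part 4 of the 67 rose and 1 fell, beside 1.64% and 0.219% of all genes. Ggt1, which cleaves extracellular glutathione, rose by 0.099, the mu transferases Gstm5 and Gstm7 by 0.084 and 0.075, and Ggt7 by 0.062. The peroxidase gene Gpx1 fell by 0.034 (slope -0.034). Counting the 9 genes too, mu transferases gave 3 of 6 rising and alpha transferases 2 of 3. Pi (0 of 2), microsomal (0 of 3), the omega to sigma classes (0 of 7), thioredoxin and peroxiredoxin (0 of 11), other NRF2 genes (0 of 16) and exporters (0 of 4) gave none, and glutaredoxins gave 1 of 4, Glrx itself. The smaller part had 2 of the 67 rising, Prdx6 and Gsta2, beside 1.03% of all genes. Gsta2 had a median of 0 there and reached 1 TPM in 3 of 36 libraries. Without the 2 farthest libraries, under normal scores and with all 3 markers in 1 fit, 0 of the 67 were called. Only 0.0616%, 0.157% and 0.0342% of all genes were called in those fits. Without the 4 libraries under 10 TPM of Chga 6 rose, beside 4.09% of all genes.

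Against Chga in the larger part 19 of the 67 rose, beside 18.7% of all genes, and 0 fell (limma, adjusted p under 0.05, and 0 at an unadjusted p under 0.05). Under median-of-ratios scaling 8 rose and 2 fell, beside 9.78% and 11.3% of all genes. With the stroma lists as a covariate 1 rose and 1 fell, beside 3.71% and 0.164%. The steepest were Gstm5 by 0.89, the microsomal transferase Mgst1 by 0.84 and the NRF2 target Nqo1 by 0.73. By class, with the 9 included, alpha (3 of 3) and microsomal (3 of 3) transferases all rose, and so did 4 of 6 mu, 1 of 2 pi, 1 of 7 omega to sigma, 2 of 4 glutaredoxins and 3 of 14 genes of synthesis and turnover. Peroxidases gave 1 of 6, thioredoxin and peroxiredoxin 2 of 11, other NRF2 genes 5 of 16 and exporters 2 of 4. The smaller part had 35 of the 67 falling, beside 24.2% of all genes, and only the exporter Abcc5 rose, by 0.17. Under median-of-ratios scaling 24 fell and 2 rose there, beside 19.2% and 14.7% of all genes. Rescaled without the 20 most abundant genes, 24 fell and 2 rose, beside 16% and 21%. Without the 4 libraries under 10 TPM of Chga 0 fell, also at an unadjusted p under 0.05, beside 0.198% of all genes, and 8 rose, beside 9.11%, so the falls rest on those libraries. The steepest falls were Gpx2 (slope -0.67), Gstp2 (slope -0.46) and Nqo1 (slope -0.43), and 11 of 16 other NRF2 genes fell, beside 6 of 11 thioredoxin and peroxiredoxin genes and 6 of 14 of synthesis and turnover. The smaller classes had 1 of 3 alpha, 2 of 6 mu, 2 of 2 pi, 2 of 7 omega to sigma, 2 of 3 microsomal, 1 of 4 glutaredoxin, 3 of 6 peroxidase and 2 of 4 exporter genes falling.

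Against Tgm4 in the larger part 10 of the 67 rose, beside 12.2% of all genes, led by Prdx6 by 0.43, Chac1 by 0.19 and Gss by 0.15. Another 22 fell, beside 26.7% of all genes, led by Mgst1 (slope -0.20), Gstk1 (slope -0.14) and Gstt1 (slope -0.12). Both counts lie near the share over all genes. Their balance depends on scaling. Under median-of-ratios scaling 21 rose and 22 fell, beside 29.1% and 28.5% of all genes. Rescaled without the 20 most abundant genes, 19 rose and 22 fell, beside 24.2% and 25.8%. Rising with falling, synthesis and turnover gave 4 and 4 of 14, thioredoxin and peroxiredoxin 3 and 3 of 11, other NRF2 genes 2 and 5 of 16, exporters 1 and 2 of 4 and mu transferases 1 and 1 of 6. In the omega to sigma classes 4 of 7 fell, in peroxidases 2 of 6, in pi 1 of 2 and in microsomal 1 of 3, while alpha transferases and glutaredoxins gave 0. In the smaller part 4 of the 67 rose, beside 2.18% of all genes, and 0 fell: Prdx6, Ggt1, Gsta2 and Abcc3. Of these Ggt1 reached 1 TPM in 6 of the 36 libraries and Gsta2 in 3, so their slopes rest on low values. Without the 2 farthest libraries, under normal scores and with all 3 markers, 0 were called rising. Only 0.0274%, 0.438% and 0.356% of all genes rose in those fits. Without the 4 libraries under 10 TPM of Chga 15 were called rising, beside 6.86% of all genes.

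Some relatives of the 9 had unlike levels. Gstm5 was the most abundant mu transferase in the smaller part, with a median of 33.7 TPM, and had 11.3 TPM in the larger. Prdx6, a peroxiredoxin that takes electrons from glutathione, had medians of 2222.75 TPM in the larger part and 19.9 TPM in the smaller. Ggt1 had 38.4 and 0.215 TPM. Gstm3, Gstt4, Gpx5 and Gpx6 had a median of 0 over all libraries. Prdx4, which is X-linked, was also listed at a median of 0 and at most 0.21 TPM, and whether this reflects its RNA level was not tested.

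How the 9 genes moved with one another was described by r alone. In the larger part their 36 pairs ran from -0.029 through a median of 0.474 to 0.815, and 35 were above 0. At least 0.5 was reached by 16 pairs (44.4%), beside 26.9% of pairs of a member with any gene. The highest was Gstp1 with Gclc, 0.815, although the median r of Gstp1 with genes on other chromosomes was itself 0.586. Next were Gsta3 with Gclc, 0.682, and Gsta3 with Gstm1, 0.674. Among the 36 libraries the 36 pairs ran from 0.064 through 0.499 to 0.910, and 17 reached 0.5 (47.2%, beside 19.1%). Gsta4 with Gsto1 led at 0.910, on different chromosomes, followed by Gstm2 with Gsto1 at 0.826 and Gstm1 with Gstm2 at 0.807. The 4 libraries under 10 TPM of Chga were high in Gsta4 and Gsto1 together, and 1 other library, W4419, had 72.3 TPM of Gsta4. Over the 32 libraries without those 4, the 3 pairs had r = 0.858, 0.867 and 0.790, and 14 of the 36 pairs reached 0.5. Gsta3 with Gstm2 then led at 0.870, so the order differs without the 4. The median of Gsta3 in the 32 was 0.25 TPM, so that lead rests on low values in many libraries. W4419 and W4517, among the 32, had 2.13 and 4.41 TPM of Gsta3 and 44.7 and 61.1 TPM of Gstm2 (median 2.08). These libraries also had 41.8 and 9.52 TPM of Gsto1 (median 1.63) and 195 and 2469.33 TPM of Tgm4. No r was computed without them. Gclc stood apart over all 36 libraries, with r from 0.064 to 0.220 against each of the other 8, whereas in the larger part it had r from 0.442 to 0.815.

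**Figure D5:**
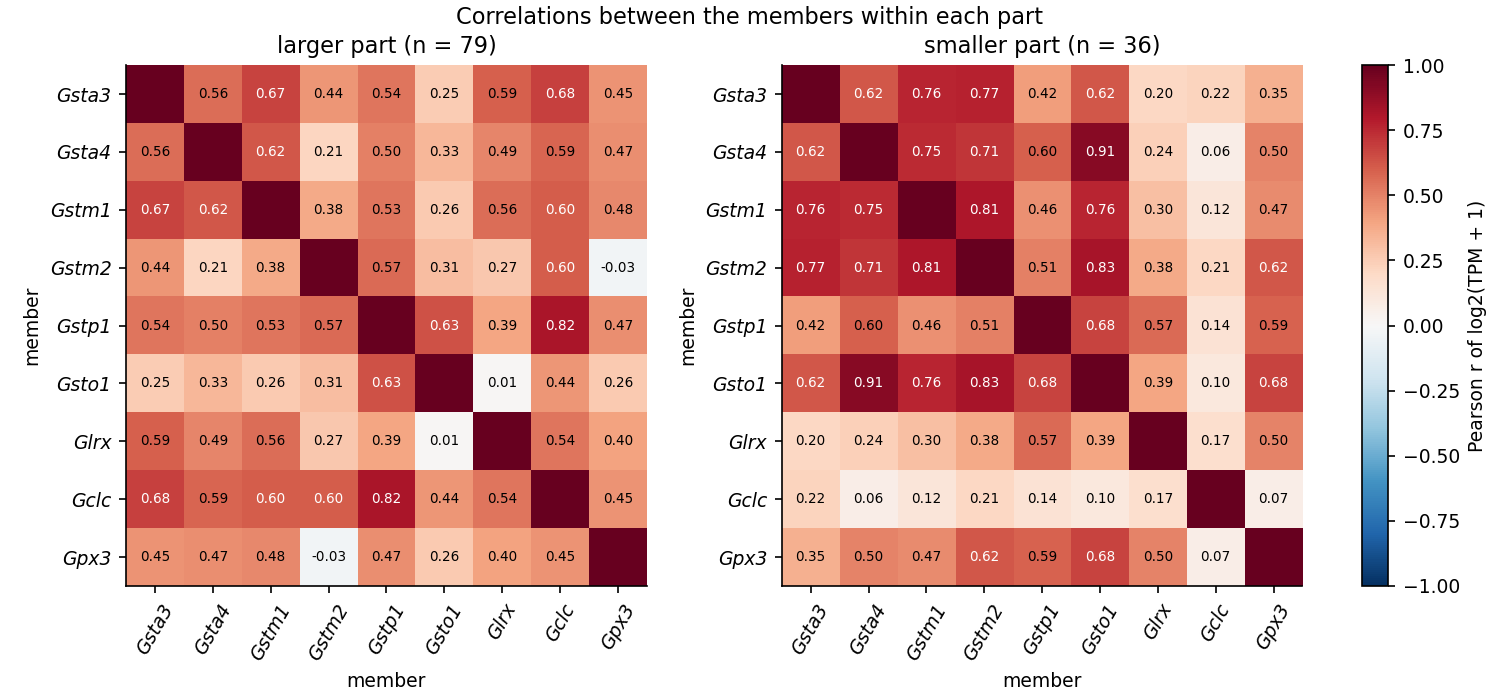
Each cell is Pearson's r of log2(TPM + 1) between 2 of the 9 genes, named on both axes, over the larger part (left, n = 79) and the smaller (right, n = 36). Gstp1 with Gclc is highest on the left, 0.815, Gsta4 with Gsto1 on the right, 0.910, and Gclc is pale on the right, 0.064 to 0.220.

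Genes with the most similar pattern were sought among all genes tested, as the 3 with the highest r for each of the 9. In the larger part (79 libraries) Gsta3 was most like Ces1d (0.808), Vldlr (0.803) and Tmem14a (0.788). Gsta4 was most like 9530034E10Rik (0.739), Zfp949 (0.734) and Gabbr1 (0.701). Gstm1 was closest to Lmo1 (0.878), Acer2 (0.875) and Acaa1b (0.849). Of these, Tmem14a lies beside Gsta3. Gstm2 was closest to Zcchc17 (0.817), Ccser2 (0.813) and Elp6 (0.794). Gstp1 followed B4gat1 (0.924), Laptm4b (0.913) and Dnajc18 (0.901). For Gsto1 they were Ctsd (0.829), Itm2b (0.793) and Ubxn2a (0.785). Among all 27 the lowest was 0.701. Glrx followed Lifr (0.750), Zfp532 (0.750) and Cdo1 (0.736). For Gclc they were Zhx1 (0.893), Ranbp6 (0.874) and Ildr1 (0.874), and for Gpx3 Mfap3l (0.780), Notch3 (0.780) and Slc43a2 (0.776).

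The smaller part (36 libraries) gave other names. Some had low medians, such as Aqp9 (0.065 TPM), Tcea3 (0.19 TPM) and Fmo5 (0.29 TPM), as had Gsta3 itself (0.265 TPM), so those r rest on low values. Gsta3 was closest to Aqp9 (0.877), Apoc1 (0.858) and Gnmt (0.834), and Gsta4 to Pllp (0.9498), Fmo5 (0.941) and Cyp27a1 (0.936). Gstm1 followed Lims2 (0.842), Actg2 (0.818) and Tcea3 (0.810), and Gstm2 followed Ptges (0.952), Hnmt (0.945) and Copz2 (0.937). Gsto1 was closest to Zfp36l1 (0.957), Myof (0.953) and Smim3 (0.947). For Gstm1, Actg2 is on the smooth muscle list. Glrx followed Nkiras1 (0.756), Ogdh (0.747) and Grb2 (0.744), and Gpx3 followed Scn7a (0.792), Sgms1 (0.784) and Itprid2 (0.778). Gstp1 followed Ndufs8 (0.947), Prdx3 (0.938) and Dpp3 (0.937), all on its own chromosome 19. Gclc followed C2cd2l (0.681), Mrps22 (0.675) and Rcn2 (0.669), all on its own chromosome 9.

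That chromosomal pattern led to a count over the 100 genes of highest r, made after these names were seen. In the smaller part 65 of the 100 for Gstp1 lay on chromosome 19, which holds 3.13% of the genes tested, and 24 of them lay beyond 5 Mb. For Gclc, 72 of 100 lay on chromosome 9, which holds 5.82%, and 66 of them lay beyond 5 Mb. The counts were 63 and 79 in the 32 libraries with at least 10 TPM of Chga. Median r of Gstp1 was 0.675 with genes of chromosome 19 and 0.294 with genes of other chromosomes. For Gsto1 these were 0.455 and 0.261. With chromosome 9 and with other chromosomes they were 0.218 and 0.112 for Gclc, and 0.318 and 0.279 for Gsta4. Gsto1, also on chromosome 19, had 7 of 100 on it, and Gsta4, beside Gclc on chromosome 9, had 10. In the larger part the counts were 9 for Gstp1 and 4 for Gclc, and from 2 to 15 over the 9 genes. DNA copy number and genotype were not among the files, and the cause was not tested.

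Genes near Gsta3 and Glrx were examined because the paper lists both as genes whose expression was associated with a nearby inherited variant. Both lie in intervals that it associated with prostate tumor burden. That list was drawn from prostate RNA of the same cross, so the choice was not independent of these data. Within 2 Mb of Gsta3, 3 of 4 genes tested in the larger part were called against it, all rising, beside 47.5% of all genes. Tmem14a, whose start lies at -22.01 kb from that of Gsta3, had r = 0.788 and rho = 0.783 (permutation p = 1e-05 each, adjusted p of the slope 1.25e-14), and 0.765 without the 2 farthest libraries. Paqr8 had r = 0.438 (permutation p = 7e-05) and rho = 0.479 (permutation p = 2e-05), and Gm38243 had r = 0.336 (permutation p = 0.00231) and rho = 0.420 (permutation p = 0.00012). In the smaller part, where Gsta3 reached 1 TPM in 8 of 36 libraries, 1 of the 4 was called, beside 29% of all genes. It was Gm38243, falling, with r = -0.488 (permutation p = 0.00197) and rho = -0.402 (permutation p = 0.0156), and -0.293 without the 2 farthest.

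Near Glrx, 13 of 25 genes tested in the larger part were called, all rising, beside 30.5% of all genes. The highest r was for Nkd2, 0.597, and Rhobtb3, 0.586 (permutation p = 1e-05 each), then Tppp, 0.489 (permutation p = 1e-05), and Rfesd, 0.445 (permutation p = 5e-05). Their rho was 0.640, 0.615, 0.485 and 0.422 (permutation p at most 0.00011), and r without the 2 farthest libraries was 0.567, 0.569, 0.454 and 0.401. Rhobtb3 starts 104.1 kb after Glrx, whereas Nkd2 starts at -1992.24 kb from it. Over the smaller part 9 of 25 were called, all rising, beside 28.9% of all genes, a share close to theirs of 36%. They were led by Sdha (r = 0.581, permutation p = 0.00023), Ell2 (r = 0.541, permutation p = 0.00046), Pdcd6 (r = 0.525, permutation p = 0.00093) and Cast (r = 0.509, permutation p = 0.00152). Their rho was 0.692, 0.458, 0.594 and 0.552 (permutation p at most 0.00574).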

How the data were processed

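The authors trimmed reads with Trimmomatic, mapped them with Bowtie2 2.2.5 to a diploid set of WSB and C57BL/6 transcripts built with Seqnature on GRCm38, and quantified genes with RSEM 1.2.20, after base calling with CASAVA 1.8.2. The deposited TPM were used as they stand. Gene names and positions came from GENCODE M21, which held 98.8% of the genes.

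The genes and lists were chosen with earlier results of these data known. Values were log2(TPM + 1). Genes that averaged 1 TPM or more over all libraries were fitted by limma 3.58.1 (moderated, mean-variance trend) on 1 marker, separately in each part, with Benjamini-Hochberg adjustment over all genes tested. Correlations had 100000 permutations, two-sided. The library kit keeps no strand, so a read is not assigned to a strand.

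Named are the 9 genes, the 3 markers, the 3 genes of highest r with each of the 9 in each part, up to 3 called genes of each list by size of slope, and up to 4 called neighbours by size of r. Some that meet the rule within a single list are given by count. Ggt7, Abcc3 and the near copies were named after their values were seen. Similar transcripts were found with BLAST+ 2.17.0. Other software was R 4.3.3 and Python 3.11.15 with scikit-learn 1.9.0, matplotlib 3.10.9, scipy 1.17.1, pandas 2.3.3 and numpy 2.4.6.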

Additional observations from a re-analysis of the deposited data

How the results depend on the processing

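The slopes of the 9 genes and the counts of them called were recomputed under 8 alternatives, and in the smaller part also without the libraries under 10 TPM of Chga, an alternative chosen after seeing the data. Of 459 alternative slopes, 361 kept their direction and side of the threshold, 41 lost a call, 24 gained one and 33 changed sign. Of these 33, 2 had been called and 0 were called under the alternative. Of 62 alternative counts (of the 9 genes, the parts and the neighbours), 41 stayed within 1.5 times. The parts and the neighbours each had 2 alternatives, and cell type list, partner and chromosome counts had none beyond those given with them. Counts of the 67 other pathway genes were recomputed under the same alternatives, a step chosen after seeing the data, and they moved too. In the larger part those falling went from 1 to 25 against Svs5 with the stroma index, when 22.2% of all genes fell. Against Tgm4 without the 2 farthest they went from 22 to 33, when 55.6% of all genes fell. In the smaller part those rising against Tgm4 went from 4 to 0 without the 2 farthest, when 0.0274% of all genes rose. They went to 15 without the libraries under 10 TPM of Chga, when 6.86% of all genes rose. The alternative that drops libraries with a mixture probability under 0.95 removed none, so it was not run. No paired analysis was possible, since the libraries form 1 group.

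Slopes that changed sign are given by alternative, with L for the larger and S for the smaller part. Median-of-ratios scaling gave Gstm2 on Chga (L) -0.1541, Glrx on Chga (S) 0.01648, Gclc on Chga (S) 0.02839 and Gclc on Tgm4 (S) 0.006192. Rescaling without the 20 most abundant genes gave Gstm2 on Chga (L) -0.04281, Glrx on Chga (S) 0.03247, Gclc on Chga (S) 0.04733 and Gclc on Tgm4 (S) 0.0008688. All 3 markers in 1 fit gave Gstm2 on Chga (L) -0.0006769, Gstp1 on Tgm4 (S) -0.004778 and Glrx on Tgm4 (S) -0.02759. The stroma index as a covariate gave Gstm2 on Chga (L) -0.2858, on Chga (S) Gstm2 0.03579, Glrx 0.04149 and Gpx3 0.06187, on Tgm4 (S) Gstp1 -0.03633 and Glrx -0.00797, and on Svs5 (L) Gstp1 -0.01419 and Gpx3 -0.003032. Normal scores of ranks gave on Chga (S) Glrx 0.04324, Gclc 0.05785 and Gpx3 0.0006818, Gstm1 on Tgm4 (L) -0.1629 and Gclc on Tgm4 (S) 0.07353. Leaving out the 2 farthest libraries gave Gstm2 on Chga (L) -0.05093, Glrx on Chga (S) 0.004437, on Tgm4 (L) Gstm1 -0.02809 and Gstm2 -0.0001658, and Gclc on Tgm4 (S) 0.03435. Leaving out the libraries under 10 TPM of Chga gave on Chga (S) Gstm2 0.09904, Gstp1 0.1324, Glrx 0.1712 and Gpx3 0.2074.

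Counts of the 9 genes called moved by over 1.5 times as follows. Against Chga, the stroma index gave 2 (L), and normal scores and leaving out the low Chga libraries each gave 0 (S). These fits called 3.87%, 2.35% and 9.31% of all genes. Against Tgm4 (L), normal scores gave 5, all 3 markers 5 and leaving out the 2 farthest 7. Among all genes 48.2%, 39.1% and 62.8% were called in these fits. Against Tgm4 (S), no filter on low values gave 1, normal scores 0, all 3 markers 0, the stroma index 1 and without the 2 farthest 0. The shares of all genes called were 0.996%, 0.465%, 0.363%, 0.958% and 0.0274%. Without the low Chga libraries 5 were called, beside 9.26% of all genes. Against Svs5 (S), a pseudocount of 0.1 gave 0, rescaling 0, normal scores 0, all 3 markers 0 and without the 2 farthest 0. The shares of all genes called were 0.561%, 0.713%, 0.157%, 0.0342% and 0.0616%. Without the low Chga libraries 4 were called, beside 4.55% of all genes. Called neighbours of Gsta3 within 5 Mb were 15 (L) and 6 (S) of 26 tested, since more genes were counted, and a pseudocount of 0.1 gave 2 (S). Where limma called 0 of the 9, between 0 and 7 had an unadjusted p under 0.05. Apart from that distance, the cause was not tested.

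TPM keeps no depth, so the counting error of low values, such as Gsta3 and Gsta4 in the smaller part, is unknown. Genes under about 1 TPM are flattened by the pseudocount. A library taken up by secretory RNA lowers the share of every other gene, and the 20 most abundant genes held 48.9% to 81.8% of TPM. Tumor burden, genotype and lobe were not used.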
